A study of Mus musculus with 9 samples.

Results

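The integrin subunits described here were chosen by name. A list of 10 genes (Itga2, Itga3, Itga5, Itga6, Itgav, Itgb1, Itgb3, Itgb4, Itgb5 and Itgb6) was set, and a gene was measured where a probe on the array carried its symbol. This held for 9 of the 10, through 18 probes, among 10021 genes tested in all. No probe used here carried the symbol Itgb3, so that Itgb3 was not analysed here.

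Whole genome expression was measured on Illumina mouse bead arrays in tumour cells of 3 lines, 67NR, 4T07 and 4T1, with 3 arrays a line. The lines derive from a mammary tumour of a BALB/cfC3H mouse and differ in spread: 67NR forms primary tumours only, 4T07 seeds cells in the lung without overt metastases, and 4T1 forms overt metastases. In all 9 samples, untreated cells (500000 per animal) were placed orthotopically in a mammary fat pad of female Balb/c mice that express GFP from the ubiquitin promoter, and tumours were collected after 2 to 4 weeks at an average diameter of 10 mm. Cells negative for GFP and for CD45, which leaves out the GFP-expressing host cells and leukocytes, were sorted, and their total RNA was extracted. Each group thus stands for 1 cell line in its tumour. The labels do not say that the 3 replicates of a line came from separate animals, so the p-values measure only the spread between these samples, which may be technical.

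Integrins are transmembrane receptors made of an alpha and a beta subunit, which bind extracellular matrix outside the cell and the actin or keratin cytoskeleton inside it. Which matrix a receptor binds depends on the pair: alpha 6 with beta 4 holds epithelial cells to laminin in hemidesmosomes, alpha 3 with beta 1 binds laminins, alpha 2 with beta 1 binds collagens, alpha 5 with beta 1 binds fibronectin, and alpha V with beta 1, beta 3, beta 5 or beta 6 binds proteins that carry the Arg-Gly-Asp (RGD) motif. In the mammary gland laminin-binding integrins sit at the basal side of the epithelium. Fibronectin receptors are typical of mesenchymal cells, and beta 6 is largely limited to epithelia, where alpha V beta 6 activates latent TGF-beta.

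On the 9 arrays, between 16025 and 17566 probes an array were detected, meaning that the authors' detection p-value against negative controls was under 0.05. Arrays of 1 line correlated at 0.983 or higher over genes, and arrays of different lines at 0.942 or lower. The lines differed in epithelial markers: in 4T1 all 11 measured were detected on every array, with a summed normalized intensity of 33473 to 42047, against 5075 to 7990 in 4T07 and 362 to 410 in 67NR, where 6 of the 11 were detected on no array. Fibroblast and pericyte markers summed to 17706 to 21396 in 67NR, 14680 to 15983 in 4T07 and 14389 to 14964 in 4T1, leukocyte markers to 1057 to 1504, 862 to 989 and 495 to 661, and endothelial markers to 452 to 498, 560 to 743 and 1247 to 1537. The fibroblast sum is weighted toward Vim, the brightest of its markers tested (mean log2 intensity 13.93, 13.49 and 13.71 in 67NR, 4T07 and 4T1). The mean of Vim was lower in 4T07 than in 4T1, whereas the sum was not. Counts of single markers called are given further below. In each line some markers of these 3 lists were detected on every array (7, 4 and 4 of 15 fibroblast, 4, 4 and 3 of 9 leukocyte and 3, 3 and 2 of 10 endothelial markers), among them the fibroblast marker Vim, the leukocyte markers Lyz2, Cd14 and Laptm5 and the endothelial markers Eng and Flt1. Eng and Flt1 were higher in 4T1 than in 67NR by 2.71 and 2.45 on the log2 scale (limma adjusted p = 2.98e-08 and 9.70e-07). The leukocyte marker Adgre1, the fibroblast marker Fap, the pericyte marker Rgs5, the endothelial marker Cldn5 and the platelet marker Pf4 were detected on no array. Fewer cells of a type and less RNA per cell cannot be told apart in such bulk samples. Within 4T07, replicate 3 stood apart in several epithelial genes. Its normalized log2 intensity was 7.67 for the basal keratin Krt14, against 4.56 and 5.22 in the other 2 arrays, and it had the highest 4T07 value of 6 subunits (Itga2, Itga3, Itgav, Itgb1, Itgb5 and Itgb6). Where the call of a named gene changes without this array, the value is given beside it.

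Promoter sequence is shown for 3 subunits with different patterns, Itga3 (higher in both 4T07 and 4T1 than in 67NR), Itgb6 (higher in 4T1) and Itga5 (lower in both). Each is the 250 bases before the most upstream start that RefSeq gives, on build GRCm38.p6 and on the gene's strand. Itga3 lies at chr11:95076715-95076964 (minus strand), Itgb6 at chr2:60722604-60722853 (minus strand) and Itga5 at chr15:103366792-103367041 (minus strand). Capitals mark matches, on either strand, to the E-box CACCTG, the GC box GGGCGG or the AP-1 motif TGANTCA.
Itga3: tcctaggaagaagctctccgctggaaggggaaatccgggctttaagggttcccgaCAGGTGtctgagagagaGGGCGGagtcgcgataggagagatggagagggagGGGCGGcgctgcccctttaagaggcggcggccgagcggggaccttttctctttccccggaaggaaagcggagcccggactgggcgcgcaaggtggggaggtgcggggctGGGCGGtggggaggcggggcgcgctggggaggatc
Itgb6: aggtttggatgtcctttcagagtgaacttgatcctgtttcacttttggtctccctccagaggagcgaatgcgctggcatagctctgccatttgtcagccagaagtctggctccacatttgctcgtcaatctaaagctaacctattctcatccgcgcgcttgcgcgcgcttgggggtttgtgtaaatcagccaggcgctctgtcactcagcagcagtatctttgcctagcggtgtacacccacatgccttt
Itga5: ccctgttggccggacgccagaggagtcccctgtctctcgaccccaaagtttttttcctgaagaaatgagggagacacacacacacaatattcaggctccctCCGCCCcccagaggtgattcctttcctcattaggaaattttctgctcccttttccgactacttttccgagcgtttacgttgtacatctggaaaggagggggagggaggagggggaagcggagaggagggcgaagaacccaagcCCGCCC
The Itga3 window held 1 E-box and 3 GC boxes, the Itga5 window 2 GC boxes and this Itgb6 window no match, while the window of another Itgb6 start held 1 E-box. Of 32851 RefSeq windows of the same length, 17.2% held the E-box, 32.7% the GC box and 6.75% the AP-1 motif. A match is a run of letters and not a shown binding site.

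Of the laminin-binding subunits, Itgb4 and Itga3 were higher in both metastatic lines than in 67NR, and Itga6 depended on the probe. Itgb4, which pairs only with alpha 6 and carries the large cytoplasmic tail of the hemidesmosome, differed most between lines of all the subunits. Its normalized log2 intensity (background-corrected, quantile-normalized, the unit of every level below) was 9.19, 8.43 and 7.70 in 67NR, 12.52, 12.59 and 12.23 in 4T07 and 12.90, 13.12 and 13.13 in 4T1. The groups of 4T07 and 4T1 lay far above 67NR, in which the arrays were most spread. Itgb4 was 24.5-fold higher in 4T1 than in 67NR (log2 fold change 4.61, SE 0.29, limma adjusted p = 1.16e-07, n = 3 a line) and 16.1-fold higher in 4T07 (4.01, SE 0.29, adjusted p = 4.72e-07). Between 4T1 and 4T07 the arrays did not overlap, but the log2 difference of 0.60 (95% interval -0.04 to 1.24) did not pass the threshold (adjusted p = 0.151). It passed with only these 2 lines in the fit (adjusted p = 0.0158), with the deposited log2 values (0.0454), and without 67NR replicate 1 (0.0397) or 67NR replicate 3 (0.0438). The second Itgb4 probe gave log2 fold changes of 4.83 for 4T1 and 4.00 for 4T07 against 67NR.

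Itga3, the alpha subunit of a laminin receptor that pairs with beta 1, had the smallest standard error of the subunits. It measured 10.97, 10.77 and 10.97 in 67NR, 12.17, 12.17 and 12.27 in 4T07, and 12.78, 12.77 and 12.69 in 4T1. The 3 lines formed 3 separate steps with no overlap. Its level was 3.59-fold higher in 4T1 than in 67NR (log2 1.85, SE 0.12, adjusted p = 1.86e-07), 2.47-fold higher in 4T07 than in 67NR (1.30, adjusted p = 4.55e-06) and 1.46-fold higher in 4T1 than in 4T07 (0.54, adjusted p = 0.00657).

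Itga6, the partner of beta 4 and also of beta 1, was near background and its 3 probes disagreed on the call. The probe that was brightest, which follows a cDNA clone, measured 5.08, 5.30 and 4.93 in 67NR, 5.01, 5.98 and 5.08 in 4T07, and 5.36, 5.99 and 5.61 in 4T1. It was detected on 1, 2 and 3 arrays of the lines in that order, and the 4T07 arrays overlapped both other lines. Since its 67NR mean of 5.11 lay below the background limit of 5.14 in that line, the sizes of its differences from 67NR are not measured. Its log2 fold change of 0.55 for 4T1 against 67NR (95% interval -0.01 to 1.10) did not pass (adjusted p = 0.0937), nor did that of 0.25 for 4T07 (adjusted p = 0.463). The probe on the curated RefSeq transcript passed in 4T1 (fitted log2 difference 1.24, SE 0.33, adjusted p over probes 0.0095) and in 4T07 (0.96, adjusted p over probes 0.0368), and so did the remaining probe (0.67 and 0.46, adjusted p over probes 0.00406 and 0.0332). Neither of these 2 probes was detected on a 67NR array, so that the sizes of their differences are not measured. In 4T07 each was detected on 1 array. The RefSeq probe measured 4.96, 5.06 and 6.34 in 4T07, with replicate 3 the highest, and its call was not tested without that array. With the mean of the 3 probes Itga6 was called in 4T1 (0.82, adjusted p = 0.00107) and in 4T07 (0.56, adjusted p = 0.0123). It was also called in 4T1 against 67NR with only the 2 lines in the fit (adjusted p = 0.0361) and without 4T07 replicate 2 (0.0281), and without that array the 4T07 difference was -0.064.

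**Figure D1:**
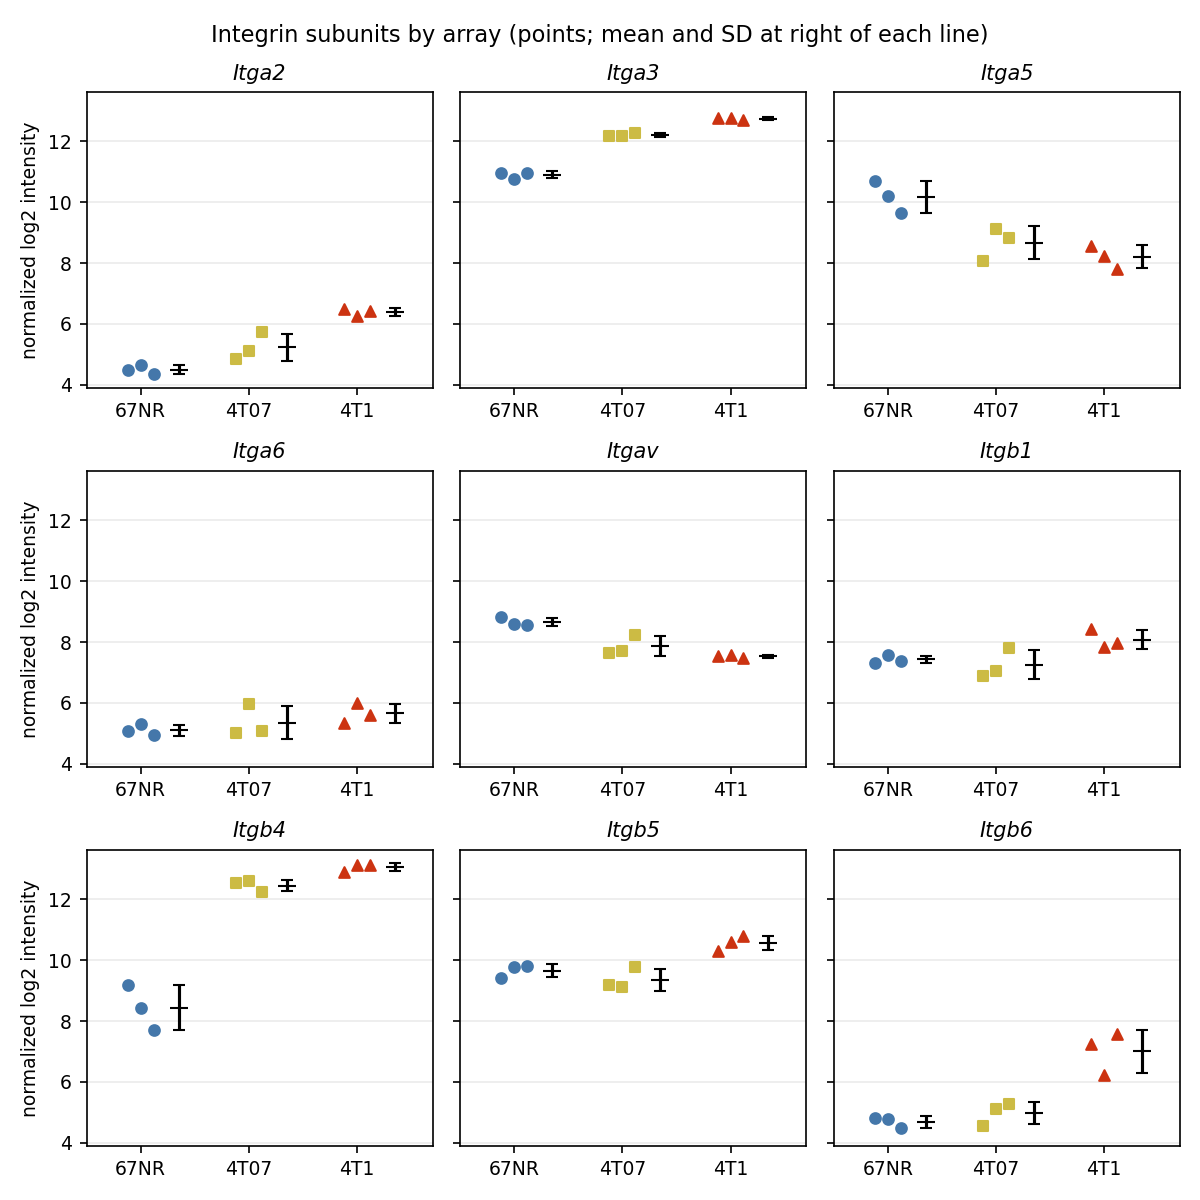
Normalized log2 intensity (vertical axis) of the 9 measured integrin subunits in 67NR, 4T07 and 4T1, with a point for each array and the mean and SD (n = 3) to the right of each line. Itgb4 and Itga3 lie higher in both 4T07 and 4T1 than in 67NR, Itga5 and Itgav lie lower in both, and Itga2, Itgb5 and Itgb6 are highest in 4T1.

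Itga2, the alpha subunit of the collagen receptor that pairs with beta 1, was detected on no 67NR array, on 1 array of 4T07 and on all 3 of 4T1. It measured 4.48, 4.65 and 4.36 in 67NR, 4.86, 5.12 and 5.73 in 4T07, and 6.51, 6.25 and 6.42 in 4T1. The lines did not overlap, with 4T1 well apart and 4T07 replicate 3 the highest of its line. Since 67NR was not above background, only a bound can be given: the mean of 4T1 was at least 2.37-fold above the lowest signal of a detected probe on the 67NR arrays (adjusted p of the fitted difference 1.18e-05). The corresponding bound for 4T07 against 67NR was 1.06-fold (adjusted p = 0.0112). It rested on 4T07 replicate 3: the mean of the other 2 arrays, 4.99, lay below the limit of 5.14, so that no fold can be given without that array. Against 4T07, Itga2 was 2.23-fold higher in 4T1 (log2 1.16, SE 0.20, adjusted p = 0.00135). This size also rested on 4T07 replicate 3, since the mean of 4.99 without it lay below the 4T07 limit of 5.09. The fitted log2 difference without that array was 1.40. These sizes hold on the background-corrected scale only. In the deposited log2 values the differences of 4T1 were 0.73 from 67NR and 0.42 from 4T07 (adjusted p = 6.21e-05 and 0.00646), and without background correction 0.82 and 0.46.

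The fibronectin receptor alpha subunit Itga5 went the other way. It measured 10.69, 10.20 and 9.63 in 67NR, 8.07, 9.12 and 8.81 in 4T07, and 8.57, 8.24 and 7.81 in 4T1. Every 67NR array lay above every array of the other lines, while 4T07 and 4T1 overlapped. Itga5 was 3.90-fold lower in 4T1 than in 67NR (log2 -1.96, SE 0.31, adjusted p = 0.000292) and 2.83-fold lower in 4T07 (-1.50, SE 0.31, adjusted p = 0.00214). The difference of -0.46 between 4T1 and 4T07 had a 95% interval of -1.15 to 0.22 and did not pass (adjusted p = 0.30). A second Itga5 probe gave -1.82 and -1.36 for 4T1 and 4T07 against 67NR.

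Itgb1, the common beta subunit of the collagen, laminin and fibronectin receptors, differed little. It measured 7.33, 7.57 and 7.39 in 67NR, 6.89, 7.06 and 7.79 in 4T07, and 8.43, 7.83 and 7.97 in 4T1. The 4T1 arrays lay above all others, by only a small margin over 4T07 replicate 3, and 67NR and 4T07 overlapped. It was 1.56-fold higher in 4T1 than in 67NR (log2 0.65, SE 0.23, adjusted p = 0.0375) and 1.77-fold higher in 4T1 than in 4T07 (0.83, adjusted p = 0.0201). Between 4T07 and 67NR the log2 difference was -0.18 (95% interval -0.69 to 0.33, adjusted p = 0.566). The call against 67NR was lost without any 1 of the 3 67NR arrays (adjusted p = 0.0936, 0.0543 and 0.0823) and without 4T1 replicate 1 (0.148) or 4T1 replicate 3 (0.0578). That against 4T07 was lost without 4T07 replicate 1 (0.0833), 4T07 replicate 2 (0.0749) or 4T1 replicate 1 (0.0819). A second Itgb1 probe, in the same arrays, gave 0.53 for 4T1 against 67NR (adjusted p over probes 0.0209) and 0.61 against 4T07 (0.0180).

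Of the alpha V receptors, the alpha chain Itgav was lower and the beta chains Itgb5 and Itgb6 were higher in 4T1 than in 67NR. Itgav, the alpha chain of the vitronectin and latent TGF-beta receptors, measured 8.82, 8.61 and 8.57 in 67NR, 7.65, 7.70 and 8.25 in 4T07, and 7.55, 7.58 and 7.46 in 4T1. All 67NR arrays were above all others, and 4T07 replicate 3 lay nearest to them. Itgav was 2.20-fold lower in 4T1 (log2 -1.14, SE 0.17, adjusted p = 0.000179) and 1.75-fold lower in 4T07 (-0.80, SE 0.17, adjusted p = 0.00232) than in 67NR. This came from the probe on the curated transcript. The other 2 probes, which follow cDNA clones, gave -0.37 and -0.43 for 4T1 and did not pass (adjusted p over probes 0.315 and 0.126). With the mean of the 3 probes the 4T07 difference was -0.41 (adjusted p = 0.0832).

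Itgb5, a beta chain of vitronectin receptors, measured 9.41, 9.77 and 9.80 in 67NR, 9.20, 9.12 and 9.77 in 4T07, and 10.31, 10.61 and 10.78 in 4T1. The 4T1 arrays stood above all others, and 67NR and 4T07 overlapped through 4T07 replicate 3. Itgb5 was 1.88-fold higher in 4T1 than in 67NR (log2 0.91, SE 0.20, adjusted p = 0.00279) and 2.31-fold higher in 4T1 than in 4T07 (1.21, SE 0.20, adjusted p = 0.000965). For 4T07 against 67NR the log2 difference was -0.30 (adjusted p = 0.263), and -0.50 (adjusted p = 0.0475) without 4T07 replicate 3.

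Itgb6, the epithelial beta chain that activates latent TGF-beta, was detected on no 67NR array, on 1 of 4T07 and on all 3 of 4T1. It measured 4.83, 4.78 and 4.47 in 67NR, 4.57, 5.11 and 5.26 in 4T07, and 7.24, 6.22 and 7.57 in 4T1. The 4T1 arrays were apart from the rest and spread by more than 1 log2 unit among themselves, and 67NR and 4T07 overlapped near background. The mean of 4T1 was at least 3.64-fold above the background limit of 67NR (adjusted p = 6.44e-05). Against 4T07 the fitted log2 difference was 2.03 (SE 0.30, adjusted p = 0.000452). The 4T07 mean of 4.98 lay below the background limit of 5.09 in that line, so that the size of this difference is not measured. Between 4T07 and 67NR the test did not pass (adjusted p = 0.487), and with 67NR at background no fold can be given. Here too the size depended on the background: in the deposited log2 values the differences of 4T1 were 0.93 from 67NR and 0.83 from 4T07 (adjusted p = 0.000299 and 0.00138), and without background correction 1.04 and 0.92. A second probe, detected in 4T1 alone, passed against 67NR as well (adjusted p over probes 0.000237). Its fitted log2 differences were smaller, 1.36 from 67NR and 1.32 from 4T07. Another probe was detected on 1 array only and was not tested.

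**Figure D2:**
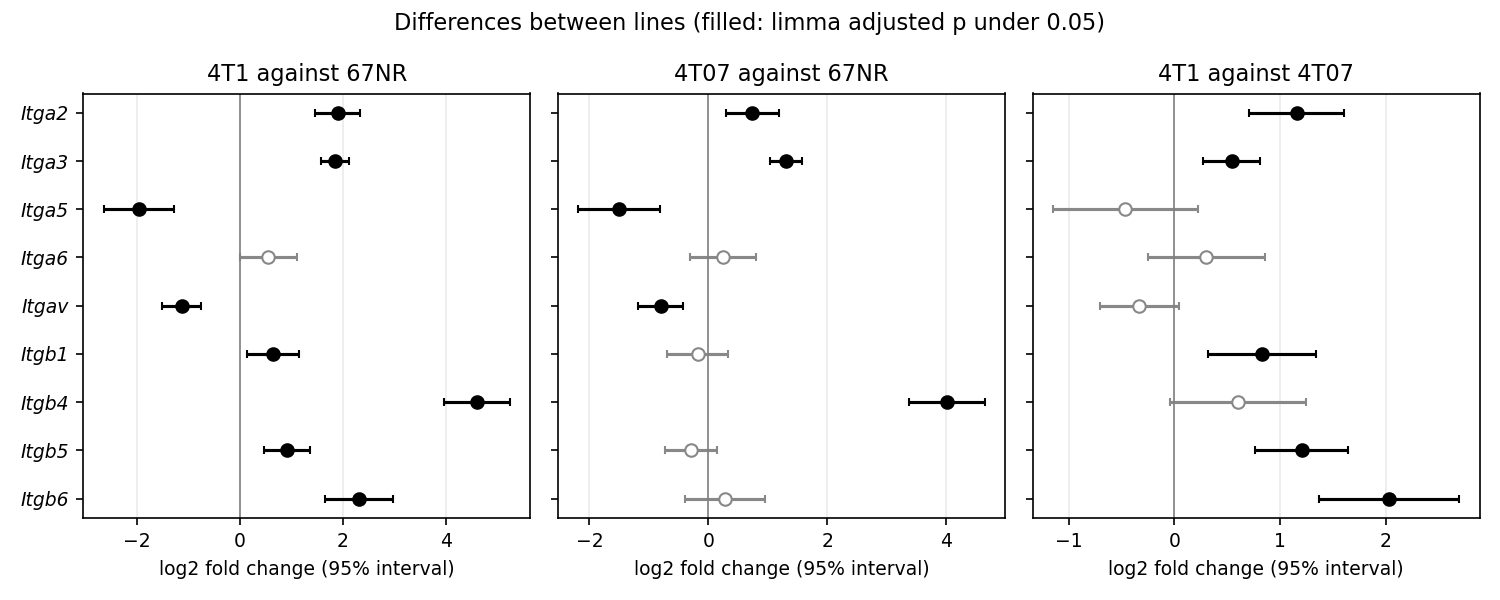
Log2 fold change (horizontal axis) of each integrin subunit in the 3 comparisons between lines, each named above its panel, with 95% intervals from limma; filled points passed an adjusted p of 0.05. Itgb4 has the longest distance from 0 in both comparisons with 67NR, and Itgb6 in that of 4T1 with 4T07.

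In counts, 6 of the 9 subunits were higher in 4T1 than in 67NR, where 23.2% of all genes tested were, and 2 were lower, where 26.6% were. In 4T07 against 67NR, 3 were higher (21.9% of all genes) and 2 lower (23.4%). In 4T1 against 4T07, 5 were higher (14.0% of all genes) and none was lower by limma (15.8%), also at an unadjusted p under 0.05 or with the methods' unpaired test. The median log2 fold change of the 9 subunits was 0.91, 0.25 and 0.60 in these comparisons, beside -0.05, -0.05 and -0.01 over all genes. With Itga2 and Itgb6 at their bounds against 67NR the first of these stayed 0.91 and the second was 0. The 3 comparisons share arrays and are not independent of each other. All 9 subunits passed the filter of detection on at least 3 arrays, Itga2 and Itgb6 through their 4T1 arrays, so that these 2 had to be high in some line to be counted. Of 11 epithelial markers tested, 10 were higher in 4T1 than in 67NR, as were Itga2, Itga3, Itgb1, Itgb4, Itgb5 and Itgb6, while in 4T07 5 were higher (3 without 4T07 replicate 3) and 1, Grhl2, was lower. The markers Cldn3, Esrp1, Krt19 and Ocln passed the filter through their 4T1 arrays alone, so that they too had to be high there to be counted. Of 9 fibroblast and pericyte markers tested, 5 were lower in 4T1 and 4 in 4T07, as were Itga5 and Itgav, and 1 was higher in each line, Acta2 in 4T1 (log2 1.26, adjusted p = 0.0164) and Dcn in 4T07 (1.12, adjusted p = 0.00896). The fibroblast markers Des and Lum passed the filter through their 67NR arrays alone. Of 5 endothelial markers tested, 2 were higher in 4T1 and 1 in 4T07 (Flt1 in both). The part of these cell type markers in the differences of the subunits was not tested.

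**Figure D3:**
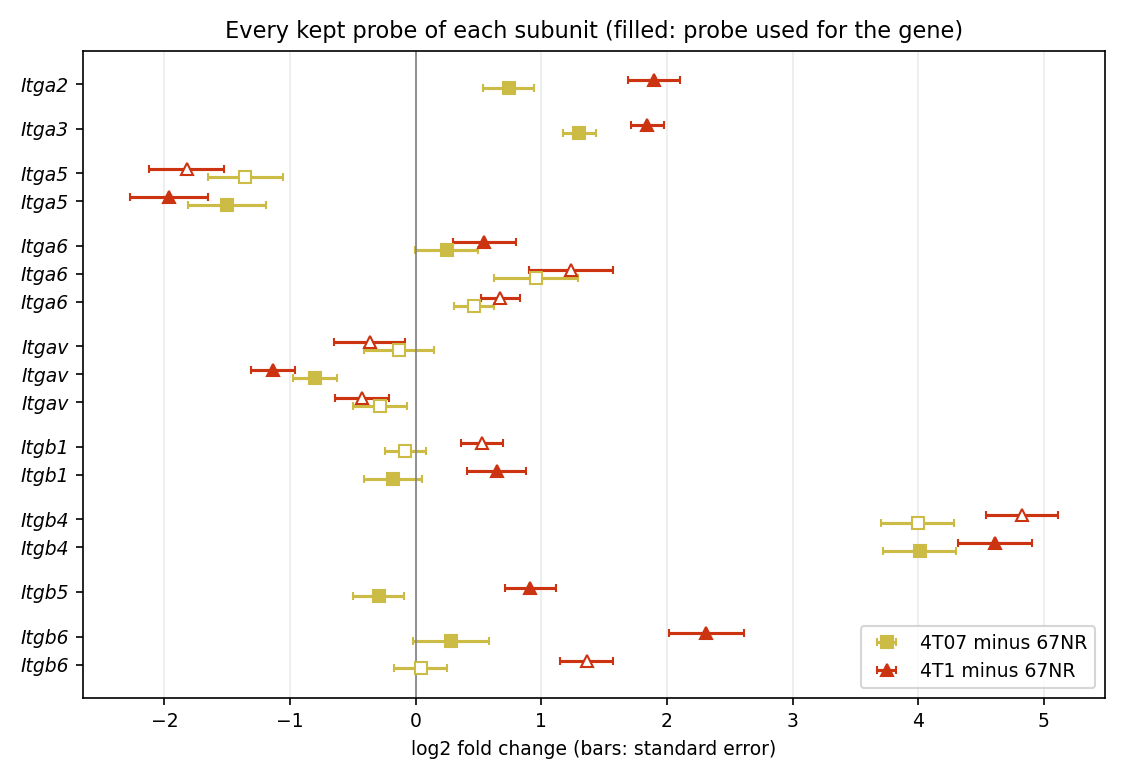
Log2 fold change against 67NR (horizontal axis, bars are standard errors) of every kept probe of each subunit, for 4T07 (squares) and 4T1 (triangles); filled symbols are the probes used for the gene. Probes of Itga5, Itgb1 and Itgb4 lie close together, while the 3 Itgav probes spread from -1.14 to -0.37 in 4T1. Those of Itga6 spread from 0.55 to 1.24 in 4T1, and those of Itgb6 from 1.36 to 2.32.

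The subunits were set side by side as known receptor pairs for 4T1 against 67NR. Those of alpha 6 beta 4 gave log2 fold changes of 0.55 and 4.61. Those of alpha 3 beta 1 gave 1.85 and 0.65, and those of alpha 5 beta 1 gave -1.96 and 0.65. The Itga6 value comes from its brightest probe and is limited by background in 67NR, and its other 2 probes gave 1.24 and 0.67. Within the alpha V receptors, Itgav gave -1.14 beside 0.91 for Itgb5 and 2.32 for Itgb6, where the last is limited by background in 67NR. In 4T07 against 67NR, alpha V beta 5 gave -0.80 and -0.30. Differences between the subunits of a pair were not tested, and levels of different probes cannot be set against each other to give the amount of a receptor.

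Outside the listed subunits, 10 of 18 other integrin genes had a named probe and 9 were tested, of which 4T1 had 1 higher and 4 lower against 67NR, and 4T07 had 2 higher and 6 lower. Over all genes the shares were 23.2% higher and 26.6% lower in 4T1, and 21.9% and 23.4% in 4T07. Itgb7, a beta chain of leukocyte receptors, measured 5.31, 5.51 and 5.43 in 67NR, 9.13, 9.47 and 10.16 in 4T07 and 4.66, 5.56 and 5.97 in 4T1. It was 18.0-fold higher in 4T07 than in 67NR (log2 4.17, adjusted p = 6.93e-07), and the difference in 4T1 was -0.02 (adjusted p = 0.961). Itgb2, the beta chain of leukocyte integrins, was detected in 4T07 alone, at 5.72, 6.0 and 6.43, at least 1.87-fold above the limit of 67NR (adjusted p = 0.000167). Of the 6 leukocyte markers tested, 1 (Itgb2 itself) was higher and 3 were lower in 4T07 than in 67NR (2 lower without 4T07 replicate 3), and their part in the 2 beta chains was not tested.

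Itga1, which binds collagens with beta 1, was 2.14-fold higher in 4T1 than in 67NR (log2 1.10, adjusted p = 0.000295). In 4T07 it was lower than in 67NR (fitted log2 difference -1.08, adjusted p = 0.000363). The collagen-binding Itga11, the platelet subunit Itga2b, the epithelium-homing lymphocyte subunit Itgae and the integrin-like Itgbl1 were all lower in both lines, with adjusted p of at most 0.000182. Itga11 and Itgbl1 were detected in 67NR alone, at least 2.12-fold and 2.14-fold lower in 4T1 and at least 2.07-fold and 2.09-fold lower in 4T07. Itgae was at least 2.89-fold lower in 4T1, and gave a log2 difference of -1.59 in 4T07. Itga2b gave -2.0 in 4T1 and -1.70 in 4T07. Of the platelet markers, the 2 tested (Itga2b and Ppbp) were both lower in 4T1 and 4T07, and their summed intensity with the other 4 measured was 291 to 336 in 67NR, 175 to 182 in 4T07 and 153 to 186 in 4T1. Itga7, a laminin receptor subunit of muscle, was lower in 4T07 (-1.03, adjusted p = 0.00102) and gave 0.35 in 4T1 (adjusted p = 0.157). Itga8 did not pass in either line (-0.21 in 4T1 and -0.12 in 4T07, adjusted p = 0.445 and 0.678). Itga1, Itga7 and Itgae in 4T07 and Itga2b in 4T1 were each detected on 1 array, with a mean below the background limit. The sizes of these differences are thus not measured. Itga9 was detected on no array.

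Ligands of the laminin receptors were measured as 13 genes of laminins and basement membrane, of which 5 were higher and 5 lower in 4T1 than in 67NR, and 6 were higher and 3 lower in 4T07. Among all genes tested, 23.2% were higher and 26.6% lower in 4T1, and 21.9% and 23.4% in 4T07. Lama5, the alpha chain of laminins bound by alpha 3 beta 1 and alpha 6 integrins, measured 7.04, 6.98 and 6.35 in 67NR, 11.13, 11.50 and 10.93 in 4T07, and 10.91, 11.15 and 10.91 in 4T1. It was 18.3-fold higher in 4T1 (log2 4.20, adjusted p = 1.17e-08) and 21.0-fold higher in 4T07 (4.39, adjusted p = 1.01e-08) than in 67NR, so that the high lines were those in which Itgb4 was high. Lamb3, the beta chain of the hemidesmosome laminin, was detected on no 67NR array and measured 4.97, 6.19 and 8.27 in 4T07 and 11.26, 10.90 and 11.15 in 4T1. It was at least 62.2-fold above the 67NR limit in 4T1 (adjusted p = 3.16e-06), and the 4T07 values were spread. In 4T07 it was at least 2.51-fold above that limit (adjusted p = 0.0257), with a fitted log2 difference of 1.84, which was 0.94 without 4T07 replicate 3 (adjusted p = 0.0286). Lamb1 and Lamc1, chains of other laminins, were also higher in 4T1 (1.07 and 0.60, adjusted p = 0.00535 and 0.00589), whereas the basement membrane linker Nid2 was at least 3.72-fold lower in 4T1 and 3.63-fold lower in 4T07, being above background in 67NR alone (adjusted p = 1.27e-07 and 2.07e-07).

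The hemidesmosome genes did not all move one way. Of 6 genes tested, 2 were higher in 4T1 than in 67NR (Krt14 and Lamb3) and 3 lower. The shares over all genes were 23.2% higher and 26.6% lower in 4T1, and 21.9% and 23.4% in 4T07. Krt14, a basal keratin, was at least 188-fold above the 67NR limit in 4T1 (adjusted p = 3.88e-07). The transmembrane collagen Col17a1 fell by 1.32 on the log2 scale (adjusted p = 1.72e-05), the tetraspanin Cd151, which binds laminin receptors, by 0.78 (adjusted p = 0.00153), and the plakin Plec, which links beta 4 to keratin, by 0.37 (adjusted p = 0.0358). In 4T07 1 was higher and 3 lower, and 1 was higher and 2 lower without replicate 3, when Dst no longer passed (-0.44, adjusted p = 0.0948). The other plakin, Dst, gave -0.43 in 4T1 (adjusted p = 0.0579). Krt5, the partner of Krt14, was detected on no array.

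**Figure D4:**
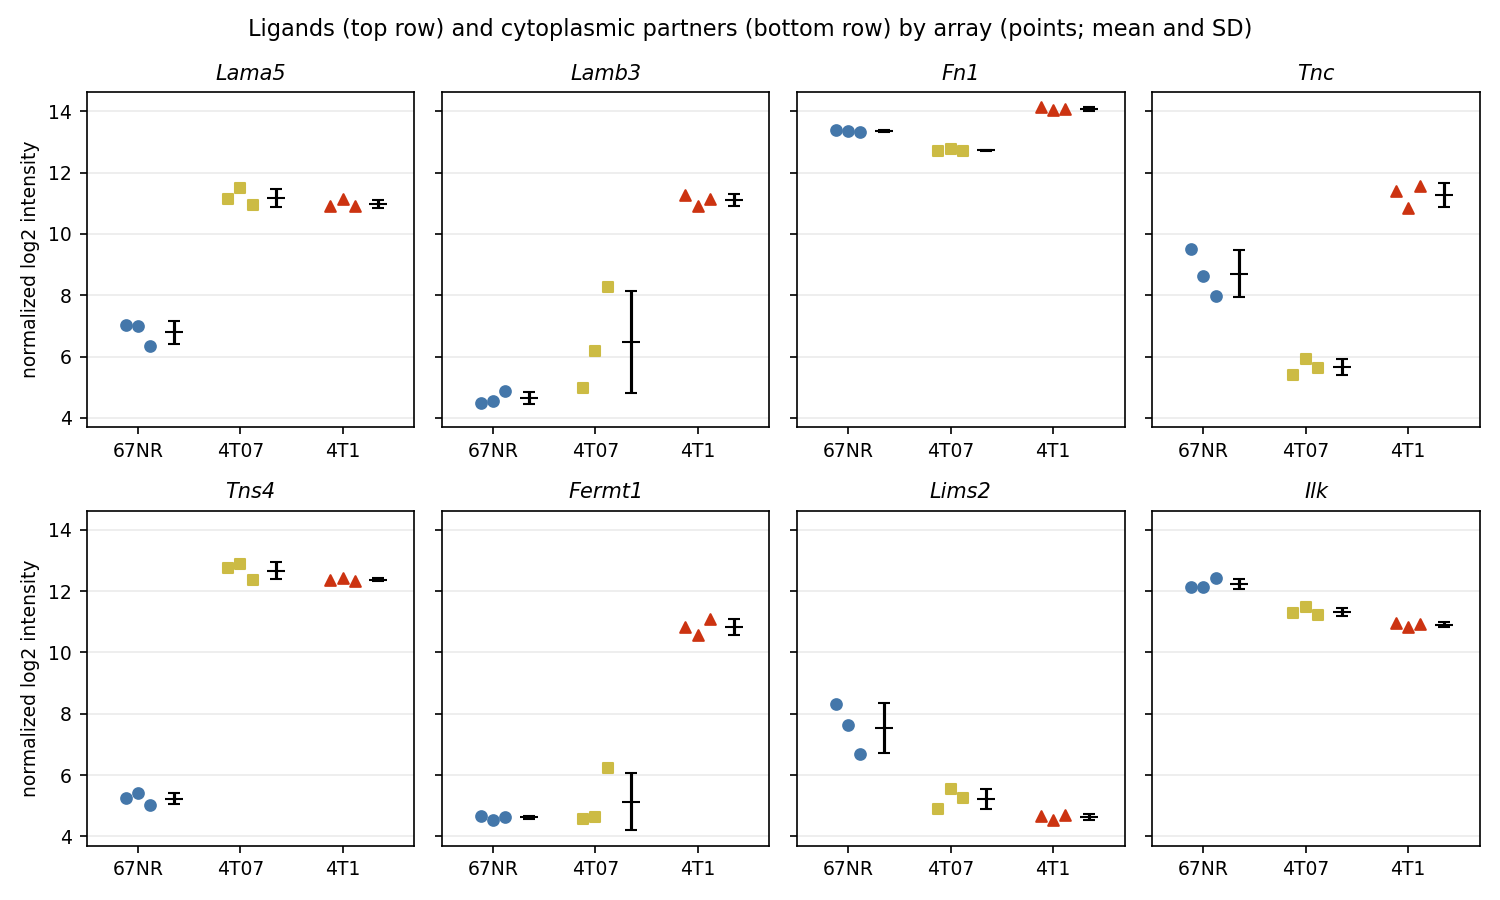
Normalized log2 intensity (vertical axis) of 4 ligand genes (Lama5, Lamb3, Fn1 and Tnc, top) and 4 genes of the cytoplasmic side (Tns4, Fermt1, Lims2 and Ilk, bottom) on each array, with mean and SD (n = 3) to the right of each line. Lama5 and Tns4 are high in both 4T07 and 4T1, Lamb3 and Fermt1 in 4T1 with 4T07 replicate 3 above the rest of its line, and Lims2 and Ilk are highest in 67NR.

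A list of RGD proteins, other integrin ligands, and latent TGF-beta with its carriers had 14 genes tested. Of these, 10 were higher and 2 lower in 4T1 than in 67NR, where 23.2% and 26.6% of all genes were. Their median log2 fold change was 0.99 (0.93 with 3 genes at their bounds) beside -0.05 over all genes. In 4T07 5 were higher and 3 lower (4 without replicate 3). In 4T07, 21.9% of all genes were higher and 23.4% lower. Of the 14 genes tested, Dmp1 passed the filter through its 4T1 arrays alone, and 4 further listed genes (Vtn, Ccn3, Postn and Nrros) had a probe that did not pass it. The bone matrix protein Ibsp, bound by alpha V integrins, was at least 36.9-fold above the 67NR limit in 4T1 and at least 6.58-fold in 4T07 (adjusted p = 2.30e-07 and 4.25e-05). Ccn2, also known as connective tissue growth factor, was 36.3-fold higher in 4T1 and 49.8-fold higher in 4T07 (adjusted p = 1.69e-07 and 9.51e-08), whereas its relative Ccn1 was 6.06-fold and 3.46-fold lower (adjusted p = 4.94e-05 and 0.00093). Tgfb1 and Tgfb3, whose latent forms carry the RGD site that alpha V beta 6 binds, were higher in 4T1 by 2.19 and 1.5 and in 4T07 by 1.99 and 1.34 on the log2 scale, with adjusted p of at most 0.000162.

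Fibronectin and tenascin were higher in 4T1 and lower in 4T07 than in 67NR. Fn1, the ligand of alpha 5 beta 1, measured 13.41, 13.36 and 13.34 in 67NR, 12.71, 12.76 and 12.72 in 4T07, and 14.14, 14.03 and 14.07 in 4T1. It was 1.64-fold higher in 4T1 (log2 0.71, adjusted p = 0.000342) and 1.56-fold lower in 4T07 (-0.64, adjusted p = 0.000796) than in 67NR. Tnc, a matrix protein bound by alpha V integrins, measured 9.50, 8.63 and 7.98 in 67NR, 5.40, 5.93 and 5.62 in 4T07 and 11.41, 10.84 and 11.58 in 4T1. It was 5.95-fold higher in 4T1 and 8.30-fold lower in 4T07 than in 67NR (adjusted p = 5.32e-05 and 1.41e-05), a difference of 49.3-fold between 4T1 and 4T07 (adjusted p = 2.30e-07). For neither gene did the lines overlap. The vitronectin gene Vtn and the periostin gene Postn were detected on no array.

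On the cytoplasmic side, 27 focal adhesion and integrin activation genes were tested, of which 3 were higher and 11 lower in 4T1 than in 67NR, and 4 higher and 7 lower in 4T07. Without 4T07 replicate 3 the 4T07 counts were 5 higher and 10 lower. Of all genes tested on the 9 arrays, 23.2% were higher and 26.6% lower in 4T1, and 21.9% and 23.4% in 4T07. Tns4, a tensin that binds beta subunit tails, measured 5.25, 5.40 and 5.03 in 67NR, 12.74, 12.89 and 12.36 in 4T07 and 12.38, 12.44 and 12.32 in 4T1, and was 142-fold higher in 4T1 and 173-fold higher in 4T07 (adjusted p = 3.41e-11 and 2.83e-11). It was detected on 2 arrays of 67NR, near background, which limits the size of these folds. Fermt1, the epithelial kindlin that activates beta 1 integrins, was at least 51.1-fold above the 67NR limit in 4T1 (adjusted p = 4.82e-08). Its arrays in 4T07 measured 4.56, 4.62 and 6.22, only replicate 3 being detected. The widely expressed kindlin Fermt2 gave -0.17 in 4T1 (adjusted p = 0.329).

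Of the complex of ILK, PINCH and parvin, which links beta 1 tails to actin, Ilk, Parva and Lims2 were lower in 4T1 and in 4T07 than in 67NR. Ilk was 2.52-fold lower in 4T1 and 1.88-fold lower in 4T07 than in 67NR (adjusted p = 8.94e-06 and 0.00022), and Parva was 2.69-fold and 1.64-fold lower (adjusted p = 1.07e-05 and 0.00247). The PINCH gene Lims2 was detected on no 4T1 array, at least 5.6-fold lower there than in 67NR (adjusted p = 1.87e-05), and fell by 2.32 on the log2 scale in 4T07 (adjusted p = 0.000131). Rsu1, which binds PINCH, gave -0.37 in 4T1 and -0.73 in 4T07 (adjusted p = 0.339 and 0.0704), and passed in 4T07 without replicate 3 (-0.95, adjusted p = 0.0353). Of the talins, which turn integrins on, Tln2 was lower in 4T1 (-1.45, adjusted p = 0.000182), and Tln1 gave -0.34 (adjusted p = 0.231). In 4T07 Tln1 gave -0.56 (adjusted p = 0.0624), and -0.74 without replicate 3 (0.0239). The tensin Tns1 was at least 2.25-fold lower in 4T1 (adjusted p = 6.45e-06), opposite to Tns4. The adaptors Pxn, Bcar1 and Crk and the actin linker Vcl did not pass in 4T1 or in 4T07, with log2 differences between -0.34 and 0.23 in 4T1. Without 4T07 replicate 3, Vcl passed in 4T07 (-0.50, adjusted p = 0.0127).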

How the data were processed

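RNA was amplified and biotinylated with an Ambion TotalPrep kit and hybridised to Illumina mouse bead arrays. The authors deposited, for 45281 probes, the raw intensity on a linear scale and the detection p-value against negative controls, and, for 22834 probes, normalized log2 values; their software is not stated in the labels or the methods. From the intensities, background was corrected and arrays were quantile-normalized with neqc (offset 16, limma 3.58.1, R 4.3.3). Probes detected at p under 0.05 on at least 3 arrays and annotated to 1 gene were kept, and the brightest stood for its gene (10021 genes; 15686 probes in the fit over probes). The 3 lines were compared with limma in 1 fit over the 9 arrays, with Benjamini-Hochberg adjustment over all genes at 0.05. A gene detected on no array of a line was set against the lowest signal of a detected probe there, as a mean over its arrays, which gives an "at least" fold. The number of arrays limits the precision. The fit was tested on simulated data.

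Members, lists, motifs and rules were chosen with earlier results of these data known. Named were all members, the other integrins, up to 3 called genes a list with the widest difference between 4T1 and 67NR, genes that bind a described member, and the 3 genes most like each of 3 members. Dst, Krt5, Parva, Rsu1, Vcl, Pxn, Bcar1, Crk, Postn, Cd44, Col4a1, Col4a2, Col4a5, Col4a6 and single markers were named after their values were seen. Of 10 members, 7 had a RefSeq promoter window, and 4 listed symbols matched through synonyms. Alternatives were no background correction, normexp, median centring, the deposited log2 values, no or a stricter filter, the mean of probes, only the 2 lines compared, a replicate block, the methods' unpaired test and leaving out each array.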

Additional observations from a re-analysis of the deposited data

How the results depend on the processing

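Of 510 values of single subunits under the alternatives, 482 kept direction and side of the threshold, 17 kept direction but no longer passed, 10 passed anew and 1 changed sign, that of Itga6 in 4T07 against 67NR, which was -0.064 without 4T07 replicate 2 and at most 0.42 with each array left out in turn. The methods' unpaired test takes its spread from 2 lines alone. With it the subunits called fell from 5 to 2 in 4T07 against 67NR, where Itga2, Itga5 and Itgav no longer passed. In 4T1 against 4T07 they fell from 5 to 2, where Itga2, Itgb1 and Itgb6 no longer passed, and the genes called there from 2985 to 1835. With each array left out, the subunits called ran from 7 to 9 in 4T1 against 67NR, from 5 to 6 in 4T07 against 67NR and from 4 to 6 in 4T1 against 4T07. Of all 10021 genes, 4409 to 5171, 3897 to 4520 and 2217 to 3036 were called in these comparisons. Replicate numbers did not pair the arrays: same-numbered arrays of different lines deviated together at r of -0.17 to 0.15, and 3 of 9 arrays correlated best with their own number. With the number as a replicate block 8, 5 and 5 subunits were called, as without it, but Itgb1 in 4T1 against 67NR no longer passed (0.65, adjusted p = 0.0530, limma) and Itga6 did (0.55, adjusted p = 0.0237). Most other settings that moved a call stand beside the result. Leaving out 4T07 replicate 3 for the gene lists was chosen after seeing the data. Signals near background limit Itga2, Itga6 and Itgb6, and the slide of each array was not used here, so that its effect was not tested.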

Other observations

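Of 12 tetraspanins and other membrane partners of integrins that were tested, 2 were higher and 5 lower in 4T1 than in 67NR, and 4 were higher (3 without 4T07 replicate 3) and 4 lower in 4T07. For all genes the shares were 23.2% higher and 26.6% lower in 4T1, and 21.9% and 23.4% in 4T07. Cd81, a tetraspanin, was 4.86-fold higher in 4T1 and 4.32-fold higher in 4T07 (limma adjusted p = 4.48e-07 and 1.04e-06), and Cd47, which binds alpha V beta 3, rose by 1.18 and 1.08 on the log2 scale (adjusted p = 2.61e-05 and 6.21e-05). Cav1, the caveola coat protein, was 11.7-fold lower in 4T1 and 4.12-fold lower in 4T07 than in 67NR (adjusted p = 6.72e-08 and 9.98e-06). The hyaluronan receptor Cd44 fell by 0.69 in 4T1 and by 0.58 in 4T07 (adjusted p = 0.0102 and 0.0257).

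A list of collagens kept apart from the basement membrane genes, which includes ligands of Itga1 and Itga2, had 4 genes tested. None of these 4 passed in 4T1 against 67NR by limma, at an unadjusted p under 0.05 or by the methods' unpaired test. Their log2 differences were 0.15 for Col1a1, -0.29 for Col5a1, -0.07 for Col6a1 and -0.27 for Col6a2 (adjusted p = 0.661, 0.127, 0.807 and 0.537). In 4T07 Col6a1 gave 0.65 and Col5a1 gave -0.73 (adjusted p = 0.0245 and 0.00167). Col1a2 and Col3a1 were detected on 2 arrays at most. Of the collagens counted with the basement membrane genes, Col4a1 and Col4a2 were lower in 4T1 (-0.57 and -0.52, adjusted p = 0.0238 and 0.0289). They were also lower in 4T07 (-1.47 and -1.41, adjusted p = 4.82e-05 and 5.15e-05). Col4a5 and Col4a6 did not pass in 4T1 (-0.36 and -0.19) and were higher in 4T07 (1.41 and 1.11, adjusted p = 0.00011 and 0.000594).

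For the 3 subunits with the widest range of line means, the genes with the most similar pattern over the 9 arrays were listed by Pearson correlation. The 9 arrays fall into 3 lines, so that a high value mostly follows the order of the lines, and no p is given. For Itgb4 they were Wnt7b, Insl6 and Tgfbi, at 0.998, 0.995 and 0.994. For Itgb6 they were Ripply1, Adgrg3 and Ccdc12, at 0.978, 0.975 and 0.975, and for Itga5 Dusp5, Coq10b and Plk2, at 0.997, 0.993 and 0.980.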
